A study of Canis lupus familiaris with 8 samples.

Results

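Signals for C1QA and C1QC, the A and C chains of complement C1q, for the complement protease C2 and for the complement inhibitor CD59 were taken from every probe set whose only annotated symbol was one of these 4 genes. There were 11 such probe sets among 23836, 1 each for C1QA and C1QC, 5 for C2 and 4 for CD59. A probe set is a group of short probes on an Affymetrix array that together give 1 signal for a transcript.

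Complement is the set of blood and tissue proteins that tags microbes, immune complexes and dying cells for removal. The classical pathway starts when C1q, built from A, B and C chains, binds its target and switches on the protease C1r, which activates the protease C1s. C1s cuts C4 and C2, whose fragments form the enzyme that cleaves C3. The cascade ends in a pore that CD59, an inhibitor anchored in the cell membrane, keeps from forming on the body's own cells. Macrophages are a main source of C1q, while fibroblasts make C1r, C1s and the C1 inhibitor.

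RNA came from frozen anterior mitral valve leaflets of 4 affected dogs and 4 control dogs, with 1 array per dog. The affected dogs had degenerative mitral valve disease, a thickening of the leaflets common in older small dogs, and are numbered as in the labels. Affected 1 was a Lhasa apso, affected 3 a Dachshund, and both affected 2 and affected 4 were of the breed Miniature poodle. All 4 controls were beagle crosses, so breed and disease cannot be told apart. No treatment of the dogs is given in the labels, and ages are not given. In a whole leaflet, more cells of a type and more RNA per cell cannot be told apart.

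The arrays came already scaled to a trimmed mean of 500.1, and their median signals lay between 124 and 191. Markers of the labelled tissue were bright. The mean log2 signal of 7 fibroblast and valve interstitial genes, such as the collagen COL1A1 and the proteoglycan DCN, ranged from 13.46 to 13.95 in affected dogs and from 11.53 to 13.99 in controls. Control 2 had the lowest of these values and also the highest mean of 12 heart muscle genes, at 13.96, against 11.45 to 12.89 in the other controls and 10.32 to 13.35 in affected dogs. Its leaflet sample therefore stands apart, and values without it are given below where it set their size. Of 14705 probe sets tested with limma, 0 (0.0%) reached an adjusted p under 0.05, the smallest being 0.238. At an unadjusted p under 0.05, 591 were higher in affected dogs (4.02%) and 560 were lower (3.81%).

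Both measured chains of C1q had their highest signals in affected dogs, with wide scatter in each group, and neither passed the test. C1QA had log2 signals of 12.84, 11.45, 12.47 and 9.42 in affected 1 to 4, against 11.38, 5.10, 10.17 and 10.28 in control 1 to 4. Affected 1 to 3 lay above every control, while affected 4 lay below 3 of the controls, and control 2 was at the floor of 5.10 (set at the 20th percentile over the whole table, since lower values have no order). C1QA differed by 2.31 ± 1.24 (log2, affected minus control, SE, n = 4 each), which is 4.97 times as high, with a 95% interval of -0.43 to 5.06 (limma adjusted p = 0.672). The size rests on control 2: without that dog it was 0.93 ± 0.70 (limma adjusted p = 0.745).

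C1QC showed the same order of dogs. Its log2 signals were 12.26, 11.04, 11.88 and 8.93 in affected 1 to 4, against 10.43, 6.75, 9.23 and 9.90 in control 1 to 4. Affected 1 to 3 again lay above all controls, and affected 4 lay below every control but control 2. The means were 11.03 ± 1.49 in affected dogs and 9.08 ± 1.63 in controls (SD, n = 4 each). C1QC differed by 1.95 ± 0.86, or 3.86 times as high, with a 95% interval of 0.03 to 3.87 (limma unadjusted p = 0.0472, adjusted p = 0.633). It was 1.17 ± 0.68 without control 2 and 2.65 ± 0.78 without affected 4 (limma adjusted p = 0.669 and 0.708). With array weights, which count less the arrays that fit worst, C1QA differed by 1.13 ± 0.90 and C1QC by 1.12 ± 0.69. The exact permutation p over the 70 splits of the dogs was 0.171 for C1QA and 0.143 for C1QC, where 0.0286 is the smallest that 4 against 4 dogs can give. In the RefSeq gene order of the dog assembly UU_Cfam_GSD_1.0 the 2 genes lie next to each other apart from a non-coding RNA, LOC119870434, that overlaps both, and C1QB lies on the other side of C1QC.

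**Figure D1:**
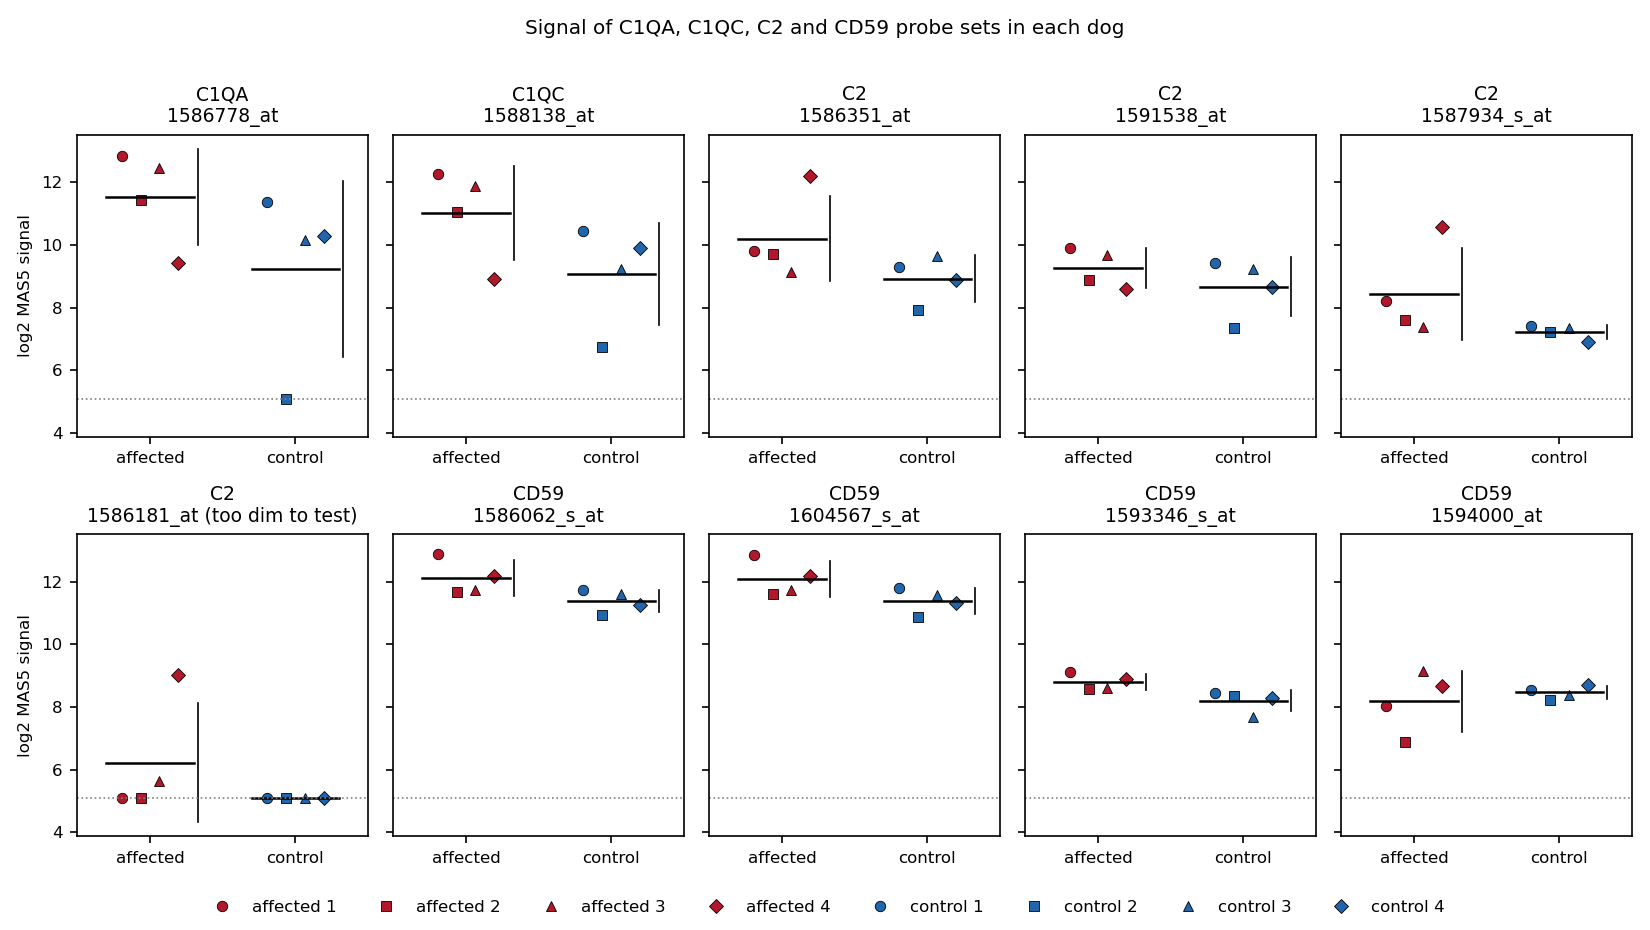
Log2 MAS5 signal of 10 probe sets of C1QA, C1QC, C2 and CD59 in each dog, affected left and control right, with the group mean as a horizontal line, 1 SD to each side as a vertical line and the floor of 5.10 dotted. Affected 4 (diamond) is lowest of the affected dogs for C1QA and C1QC and highest for 3 of the C2 probe sets shown, and the groups are apart for CD59 1593346_s_at.

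C2 is a serine protease that, once cut by C1s, becomes the catalytic part of the C3-cleaving enzyme of the classical and lectin pathways. 3 of its 5 probe sets were bright enough to test, and their patterns were not alike. The brightest, 1586351_at, had log2 signals of 9.80, 9.70, 9.13 and 12.20 in affected 1 to 4, against 9.28, 7.92, 9.63 and 8.87 in control 1 to 4. Affected 4 stood 2.66 above the mean of the other affected dogs, which themselves overlapped with the controls. The difference was 1.28 ± 0.62, or 2.43 times as high, with a 95% interval of -0.10 to 2.67 (limma adjusted p = 0.659). It was 0.62 ± 0.41 without affected 4 and 0.94 ± 0.62 without control 2 (limma adjusted p = 0.763 and 0.702).

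A second C2 probe set, 1587934_s_at, gave 8.20, 7.62, 7.37 and 10.58 in affected 1 to 4, against 7.42, 7.23, 7.34 and 6.90 in control 1 to 4. Affected 4 was again far above the rest, 3 of 4 affected dogs lay above all controls, and affected 3 lay just below control 1. The difference was 1.22 ± 0.61 (limma adjusted p = 0.66, exact permutation p = 0.0571) and 0.50 ± 0.32 without affected 4. A dim probe set, 1586181_at, was too low in most dogs to test. It was at 9.03 in affected 4 and 5.64 in affected 3, and at the floor in the other 2 affected dogs and in all 4 controls.

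The C2 probe set 1591538_at did not show the high value of affected 4. Its log2 signals were 9.89, 8.88, 9.69 and 8.60 in affected 1 to 4, against 9.43, 7.36, 9.24 and 8.65 in control 1 to 4. Affected 4 was the lowest of the affected dogs here and control 2 the lowest of all. The difference was 0.59 ± 0.47 (limma adjusted p = 0.75), and 0.15 ± 0.36 without control 2. The fifth probe set, 1591769_at, was at the floor in all 8 dogs. After each profile was centred on its own mean, 1586351_at and 1587934_s_at differed by 0.33 on average per dog, while 1586351_at and 1591538_at differed by 0.81. Which transcripts of C2 each probe set reads was not tested. In the same RefSeq gene order C2 lies beside CFB, its counterpart in the alternative pathway, and overlaps ZBTB12, a protein-coding gene on its other side. CFB had no probe set under its own symbol.

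CD59 blocks the last step of pore formation on host cells. Of its 4 probe sets, 3 had higher mean signals in affected dogs, by 0.60 to 0.74, and the dimmest had a lower mean. The brightest, 1586062_s_at, had log2 signals of 12.89, 11.68, 11.73 and 12.17 in affected 1 to 4, against 11.73, 10.92, 11.60 and 11.26 in control 1 to 4. Affected 1 was highest, and control 1 lay just above affected 2 and affected 3, so the groups overlapped by a small margin. CD59 differed there by 0.74 ± 0.32, or 1.67 times as high, with a 95% interval of 0.04 to 1.44 (limma unadjusted p = 0.0411, adjusted p = 0.619). It was 0.48 ± 0.27 without affected 1 and 0.58 ± 0.31 without control 2.

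The CD59 probe set 1604567_s_at repeated these values, with log2 signals that differed from those of 1586062_s_at by at most 0.07 in any dog. It differed by 0.70 ± 0.32 (limma adjusted p = 0.645). The dimmer 1593346_s_at had 9.11, 8.57, 8.62 and 8.90 in affected 1 to 4, against 8.46, 8.35, 7.69 and 8.30 in control 1 to 4. Every affected dog lay above every control, the only member probe set for which this held, with a gap of 0.11 between affected 2 and control 1. The groups overlapped once the arrays were scaled by quantile normalization or by their medians (limma unadjusted p = 0.0629 and 0.111). The means were 8.80 ± 0.25 in affected dogs and 8.20 ± 0.34 in controls (SD, n = 4 each), a difference of 0.60 ± 0.26 (limma unadjusted p = 0.0444, adjusted p = 0.627, exact permutation p = 0.0286).

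The dimmest CD59 probe set, 1594000_at, went the other way. It had 8.02, 6.89, 9.14 and 8.68 in affected 1 to 4, against 8.56, 8.23, 8.37 and 8.69 in control 1 to 4. The affected dogs spread on both sides of the narrow range of the controls. The difference was -0.28 ± 0.43 (limma adjusted p = 0.872), with a 95% interval of -1.24 to 0.68, and it turned to 0.15 ± 0.31 without affected 2.

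Over the 9 tested probe sets of the 4 genes, 8 had higher means in affected dogs, beside 50.5% of all probe sets tested. At an unadjusted p under 0.05, 3 of the 9 were higher, 1 of C1QC and 2 of CD59, beside 4.02% of all tested. Over the alternatives that count in limma ran from 0 of 9 with the arrays scaled to equal medians or without affected 1, to 5 of 9 with array weights, with the replicate number as a block, without affected 3 or without control 1. The groups did not overlap for 1 of the 9, beside 2.35% of all tested that were higher without overlap. The 4 genes were chosen with these results known and several probe sets read the same gene, so the counts are a description. Adjusted p ranged from 0.619 to 0.872 over the 9.

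**Figure D2:**
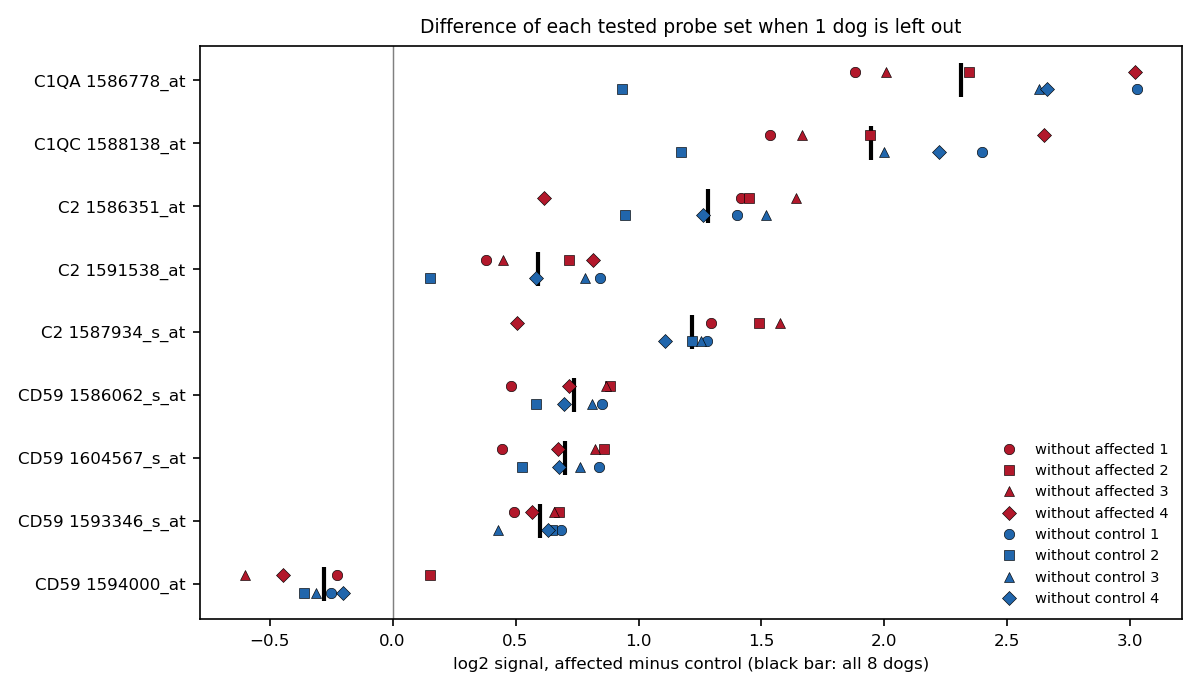
Difference in log2 signal, affected minus control, of each tested probe set with all 8 dogs (black bar) and with each dog left out in turn (red, affected dogs, above; blue, control dogs, below). C1QA and C1QC are smallest without control 2, C2 1586351_at and 1587934_s_at without affected 4, and CD59 1594000_at is above 0 without affected 2.

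The genes most like the C1q chains were looked for among the brightest probe sets of 5437 other genes, by the mean absolute difference between centred log2 profiles over the 8 dogs. The median gene differed from C1QA by 1.69 per dog on this measure. MRC1, the mannose receptor of macrophages, came closest to C1QA at 0.45, and C1QC was next at 0.50. The haemoglobin scavenger receptor CD163 followed at 0.64, the chemokine CCL23 at 0.66, the macrophage growth factor receptor CSF1R at 0.72 and BPI, an antibacterial protein of phagocytes, at 0.73. C1QC was closest to CTSC, a lysosomal protease, at 0.36, followed by MRC1 at 0.39, LOC480601 at 0.44, C1QA at 0.498, CD163 at 0.504 and CD86, a costimulatory molecule of antigen-presenting cells, at 0.52. MRC1 showed the shared pattern at its plainest, with log2 signals of 10.79, 10.41, 11.23 and 8.19 in affected 1 to 4, against 10.07, 5.10, 8.21 and 9.51 in control 1 to 4. As for C1q, affected 4 was lowest of the affected dogs and control 2 lowest of all. The dip in control 2 weighs on this measure. Over the 7 dogs without it, C1QA and C1QC were each other's nearest gene at 0.19, against a median gene at 1.07 from C1QA and 1.08 from C1QC. MRC1 was then second for both chains, at 0.36 from C1QA and 0.28 from C1QC, and CTSC came next for both. PTHLH, C5H16orf95 and PLPP4, none of them on the macrophage list, followed at ranks 4 to 6 for both chains. CD163, CSF1R, CCL23 and BPI came at ranks 8, 10, 18 and 25 of 5437 from C1QA, so 1 of its 5 nearest other genes was still among the nearest 5, and 2 of the 5 were for C1QC. Without affected 4, 3 of the 5 stayed among the nearest 5 for C1QA and 1 for C1QC, and all 5 stayed within rank 20 for both. ICAM1 was then nearest to C1QA at 0.40, and CTSC to C1QC at 0.23. MRC1 came at rank 4 from C1QA and 11 from C1QC. C1QC fell to rank 7 from C1QA, and C1QA to rank 26 from C1QC. The likeness of the chains to each other and to MRC1 thus depends in part on affected 4.

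The gene nearest to C2 (1586351_at) was NABP1, a single-stranded DNA binding protein, at 0.32, against a median gene at 0.87. It was followed by CDA, a cytidine deaminase, at 0.38, the phosphodiesterase PDE4B at 0.42, the inflammasome sensor NLRP3 at 0.42 and the growth factor NRG1 at 0.43. NABP1 had log2 signals of 7.86, 7.94, 8.14 and 9.90 in affected 1 to 4, against 7.60, 6.30, 7.21 and 7.26 in control 1 to 4. For all 5 of these genes affected 4 had the highest signal of the 8 dogs, and the likeness rests on that dog. Without affected 4 they came at ranks 144 to 627 of 5437 from C2, and without control 2 at ranks 1 to 20. CD59 spanned under 2 log2 units over the dogs in its brightest probe set and was not searched.

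**Figure D3:**
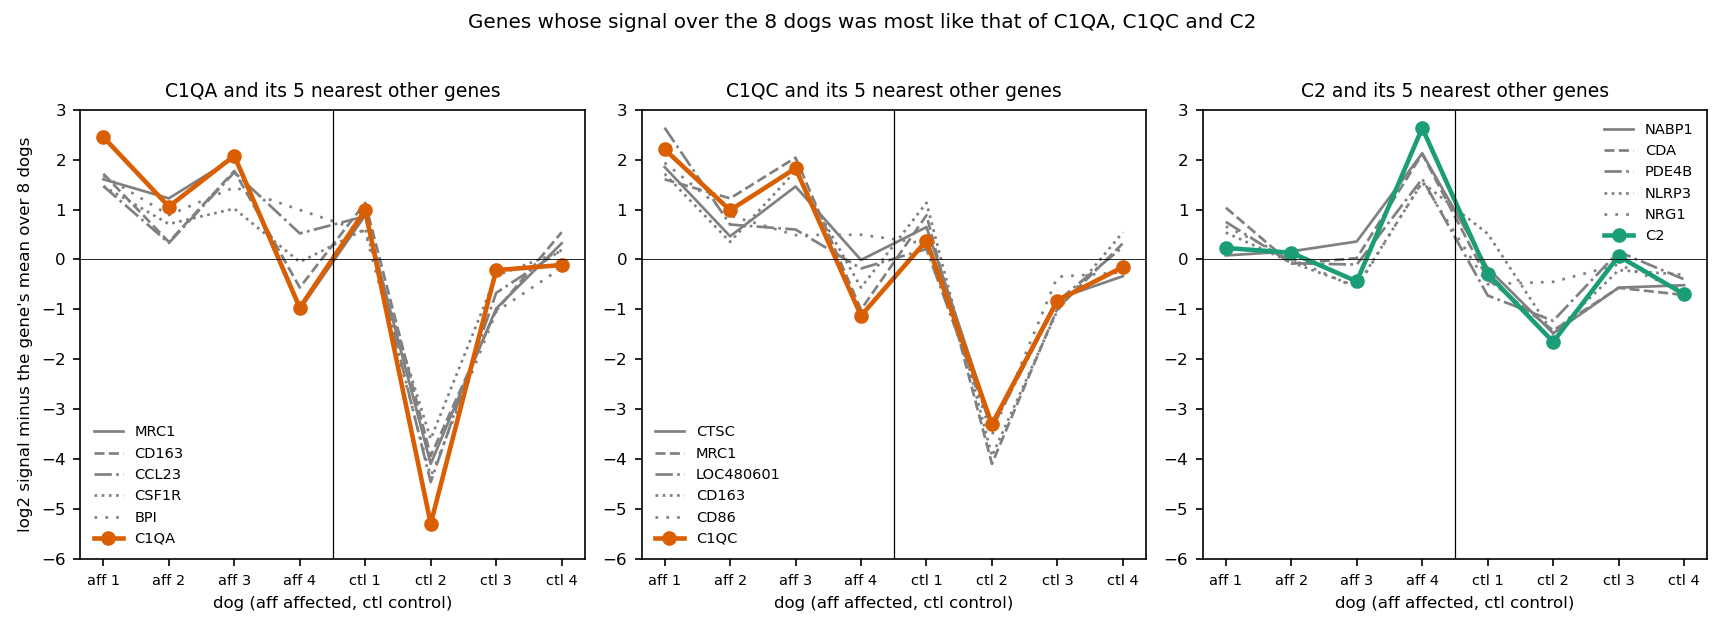
Log2 signal minus the gene's mean over the 8 dogs for C1QA and C1QC (orange) and C2 (green), each with the 5 other genes closest to it (grey), with affected dogs left of the vertical line. The C1q panels dip in affected 4 and most in control 2, while the C2 panel peaks in affected 4.

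Macrophage markers were also higher on average in affected dogs, though they did not follow C1q in every dog. Of 18 genes listed for macrophages and monocytes 15 were measured, and 2 of these, MARCO and FCER1G, passed the filter on dim probe sets only through the affected dogs and so had to be higher there. The other 13 all had higher means in affected dogs, beside 49.5% of all genes, and for 5 of them the groups did not overlap, beside 2.7% of all genes. Without control 2 all 13 were still higher, and their median difference was 1.14, against 1.86 with all dogs. The count without overlap was again 5, but leaving out a dog cannot lower that count. The mean log2 signal of the 15 was 10.90, 9.67, 10.23 and 10.48 in affected 1 to 4, against 9.53, 6.51, 8.34 and 8.70 in control 1 to 4. MARCO and FCER1G add to that distance through the filter. Over the other 13 the mean was 10.64 in affected dogs and 8.74 in controls, or 9.40 in controls without control 2. The summed signal of the 15 ranged from 21282 to 44609 in affected dogs and from 2099 to 20555 in controls. Control 2 had the 2099, and the other controls summed to 8819 or more. It was below every other control for 12 of the 15, and was the only control at the floor for FCGR1A, AIF1 and MRC1. FCER1G was at the floor in controls 2 to 4 and MARCO in all 4. The part of these markers in the C1q result was not tested.

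Affected 4, the affected dog with the lowest C1q, was not low in macrophage markers as a whole. Relative to the mean of the other affected dogs it stood at -2.83 for C1QA and -2.799 for C1QC in log2 signal, while the median over the 15 markers was 0.18. That median includes MARCO and FCER1G, at 2.96 and 0.48, which passed the filter only through affected dogs. The markers lay on both sides. MRC1, CD163, CSF1R, CD86, CTSS, CD68 and CD14 were below the mean of the other affected dogs, and the rest were above it. Affected 4 was lowest of the affected dogs for 3 of the 15 markers, MRC1 at -2.63, CD163 at -1.84 and CSF1R at -1.12. It was at 2.96 for the scavenger receptor MARCO and 2.79 for lysozyme, LYZ, the values furthest above the other affected dogs. The Miniature poodle affected 2, of the same breed, had C1QA at 11.45 and C2 1586351_at at 9.70, against 9.42 and 12.20 in affected 4.

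**Figure D4:**
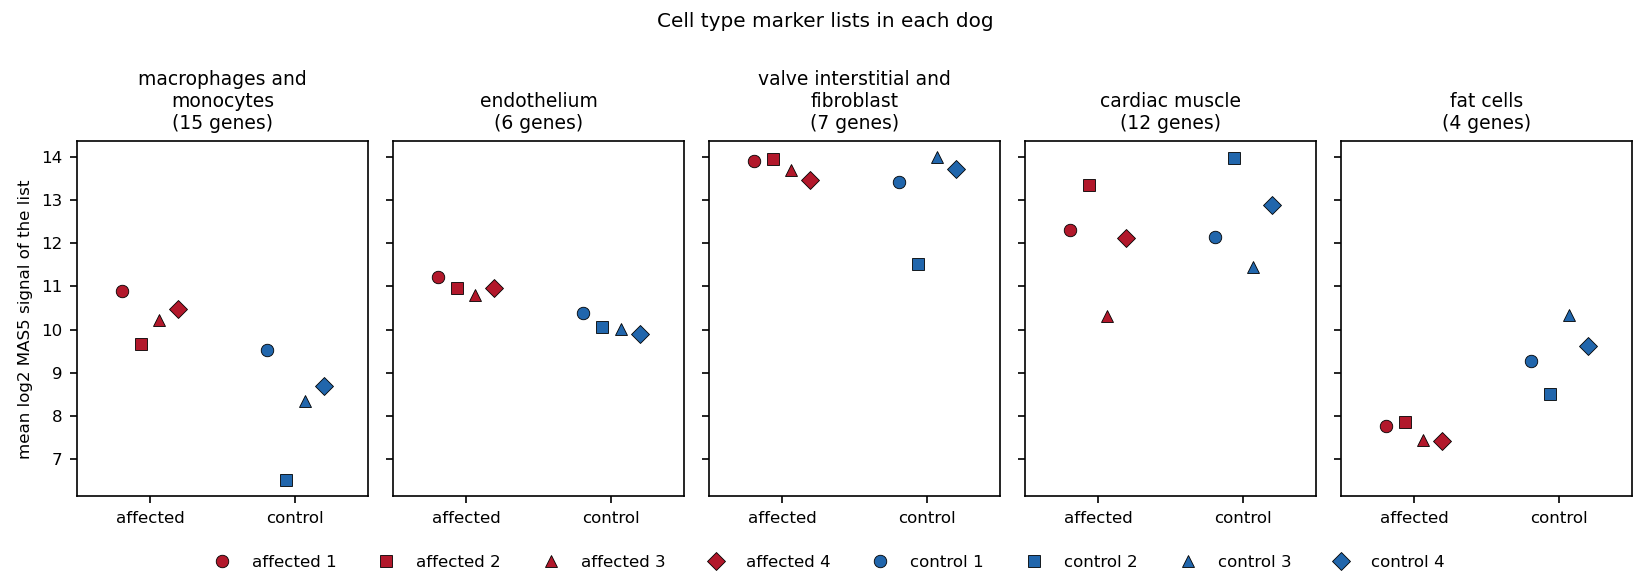
Mean log2 MAS5 signal of 5 marker lists in each dog, affected left and control right. The macrophage list includes MARCO and FCER1G, which passed the filter only through affected dogs. Control 2 (blue square) is lowest for macrophage and fibroblast genes and highest for cardiac muscle genes, and affected 4 (red diamond) lies within the other affected dogs for macrophage genes.

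For the endothelial list all affected dogs lay above all controls, at 10.80 to 11.22 against 9.91 to 10.39. Of 8 listed genes 6 were measured, and all 6 had higher means in affected dogs, beside 49.5% of all genes. For 2 of the 6 the groups did not overlap, beside 2.7% of all genes. By adjusted p in limma 0 of the 6 passed the threshold. The mean of the fat cell genes ran the other way, from 7.43 to 7.86 in affected dogs and from 8.50 to 10.33 in controls, with 4 of 7 measured. The genes were not alike in control 2, the lowest of these controls. Its ADIPOQ was at the floor, below every affected dog (6.23 to 7.70), while the other controls had 10.63 to 13.26. The same dog had the highest signal of all for LPL, at 11.32, and CD36, at 10.91. The groups overlapped for ADIPOQ and LEP and lay apart for LPL and CD36. The T and NK cell list overlapped, from 7.47 to 8.12 in affected dogs and from 7.41 to 8.06 in controls, with 5 of 9 measured. For neutrophils (CXCR2), B and plasma cells (JCHAIN) and hepatocytes (TTR) only 1 gene of each list could be tested, each with overlapping groups. None of the 5 listed red cell genes was named in the annotation of the array. The part of these lists in the results was not tested.

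The rest of the complement system was described on a list of 55 genes, of which 21 had a probe set under their own symbol and 16 were tested, the 4 members included. Of the 16, 15 had higher means in affected dogs, beside 49.5% of all 5438 genes, and 0 passed at an adjusted p of 0.05. The median difference was 0.72, beside -0.0056 over all genes, and it was 0.45 when each gene was given the mean over its tested probe sets in place of the brightest. Without control 2 the median was 0.30 and 13 of the 16 were higher. Among the 12 genes that are not members, 2 had an unadjusted p under 0.05 in limma and groups that did not overlap. The shares over all genes in that direction were 4.8% and 2.7%. These 2 were the receptor subunits ITGAM and ITGB2, and ITGAM was also counted among the macrophage genes without overlap. With the receptors left out, 0 of 14 complement genes, members included, were without overlap. Control 2 was lowest of the controls for 8 of the 12 genes that are not members.

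The partners of C1q had smaller differences, and these were near 0 without control 2. C1R, the protease that activates C1s, had 12.51, 12.22, 12.96 and 13.04 in affected 1 to 4, against 12.70, 9.51, 12.68 and 12.60 in control 1 to 4. Apart from control 2, the 7 dogs lay within 1 log2 unit of each other. C1R differed by 0.81 ± 0.65 (limma adjusted p = 0.75) and by 0.02 without control 2. C1S, which cuts C4 and C2, differed by 0.59 ± 0.58 (limma adjusted p = 0.793) and by -0.08 without control 2, and its other probe sets by -0.19 and 0.49. SERPING1, the inhibitor of C1r and C1s, differed by 0.41 ± 0.49 (limma adjusted p = 0.833) and by -0.18 without control 2.

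C3, on which all pathways converge, had 11.17, 10.98, 11.04 and 10.75 in affected 1 to 4, against 10.58, 6.57, 11.59 and 10.06 in control 1 to 4. The affected dogs lay close together, above every control but control 3 and below that dog. C3 differed by 1.28 ± 0.86 (limma adjusted p = 0.717), by 0.24 without control 2 and by 1.91 without control 3. Its 6 probe sets ran from 0.0054 to 1.28. In the terminal pathway C6, a part of the pore, differed by 0.42 ± 0.57 (limma adjusted p = 0.852). C6 was the exception in control 2, at 12.78 against 9.74 to 10.24 in the other controls and 10.78 to 11.35 in affected dogs, and it differed by 1.11 without that dog, by 1.05 with array weights and by 0.093 without control 4. C5, whose fragment starts the pore, and C8G, a further pore subunit, differed by 0.19 ± 0.31 and 0.25 ± 0.38 (limma adjusted p = 0.881 and 0.87). With a dog left out C5 ran from 0.043 without affected 2 to 0.33 without affected 3, and C8G from 0.043 without control 4 to 0.42 without affected 3.

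Among the inhibitors besides CD59 and SERPING1, CLU (clusterin), which binds the forming pore, differed by 0.70 ± 0.37 (limma adjusted p = 0.669) and by 0.34 without control 2. It was brightest in affected 1, at 15.43, against 14.50 to 14.52 in the other affected dogs and 12.98 to 14.52 in controls. CFI, the protease that breaks down C3b, differed by 0.18 ± 0.23 and VTN (vitronectin) by -0.06 ± 0.28 (limma adjusted p = 0.847 and 0.969), and the 4 probe sets of CFI ran from -0.02 to 0.55. With a dog left out CFI ran from 0.080 without affected 4 to 0.30 without affected 1. FCN2, C8A, C8B, C9 and C4BPB were on the array and too dim to test.

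With all 8 dogs the complement receptor 3 subunits had the smallest p of the list in limma. Without control 2 that of C6 was smaller (limma unadjusted p = 0.00101, adjusted p = 0.232). ITGB2 and ITGAM then had a limma unadjusted p of 0.00154 and 0.00576. ITGAM had 8.38, 8.18, 8.29 and 9.31 in affected 1 to 4, against 7.52, 6.45, 7.28 and 7.40 in control 1 to 4, a difference of 1.38 ± 0.35 (limma adjusted p = 0.367). Affected 4 was the highest dog here, unlike for C1q. Its partner ITGB2 had 9.59, 9.17, 9.39 and 9.84 in affected 1 to 4, against 8.68, 7.24, 7.71 and 8.26 in control 1 to 4, a difference of 1.52 ± 0.33 (limma adjusted p = 0.328). For both subunits every affected dog lay above every control, and without control 2 they differed by 1.14 and 1.28. With the arrays scaled to equal medians the groups overlapped for ITGB2.

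**Figure D5:**
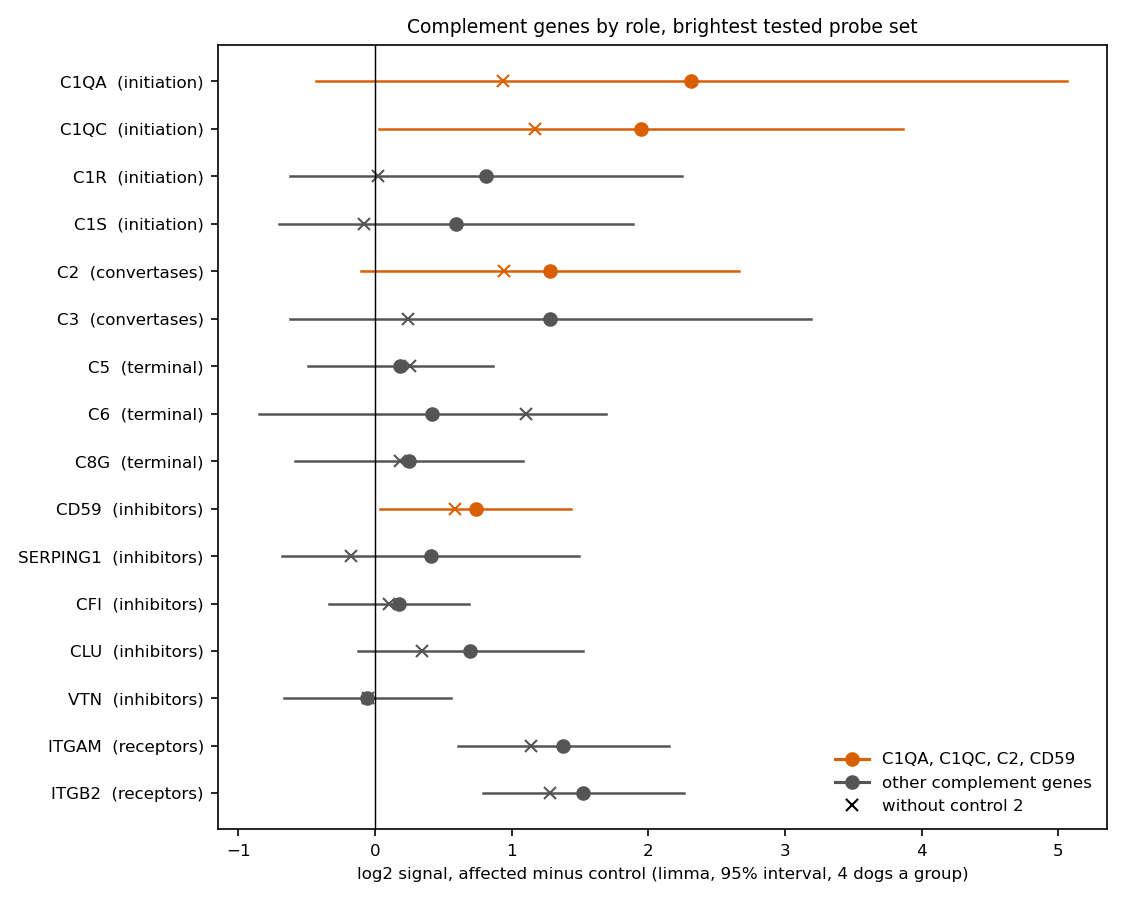
Difference in log2 signal, affected minus control, of the brightest tested probe set of 16 complement genes, grouped by role, with the 95% interval of limma (4 dogs a group) and the value without control 2 as a cross. The intervals of ITGAM and ITGB2 lie furthest from 0, and the crosses of C1R, C1S and SERPING1 lie near or below 0.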

How the data were processed

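Per the submitters' processing notes, the authors used MAS5, and the deposited values are intensity signals on a linear scale. The MAS5 version is not given in the sources used here. Per the labels, total RNA was labelled with biotin, and each dog has its own array. Symbols came from the platform annotation, and no coordinates are given because it states no genome.

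The signals were brought to a common mean (2% trimmed at each end), raised to a floor of 34.2 (5.10 in log2) where lower, and turned into log2. Tests covered the probe sets for which 4 or more of 8 arrays exceeded their own 40th percentile. The groups were compared with limma 3.58.1 in R 4.3.3 (lmFit, eBayes with trend), two-sided. P-values were adjusted by Benjamini-Hochberg over 14705 probe sets at a threshold of 0.05. Exact permutation tests were two-sided. The number of arrays limits the precision. The dogs are separate animals, and each SE is that of limma. On simulated arrays with 200 of 14705 probe sets changed, limma called 0% of them for a log2 change of 1, 66.4% for 2 and 95.7% for 4. False calls averaged 0, 6 and 10. The changed probe sets were picked at random and each was drawn independently, so no simulated dog stood apart as control 2 did. The median SE over all tested probe sets was 0.34, against 1.24 for C1QA and 0.86 for C1QC. The rates therefore do not apply to those 2 probe sets.

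The members and the lists were chosen with earlier results of these data known. Named were all probe sets of the 4 genes, every tested complement gene by its brightest probe set, and the 5 genes nearest to each member that spanned over 2 log2 units. The markers named beside their lists were chosen after their values were seen. The titles do not state whether the replicate numbers pair the dogs, so the replicate block was run as an alternative. The correlations of deviations of same-numbered dogs were -0.116, 0.409, 0.022 and -0.0132. Such correlations cannot tell whether dogs were processed in pairs. Alternatives were other scalings, filters, floors, a pseudocount of 16, other priors, array weights, a replicate block and leaving out each dog. The searches for nearest genes without a dog, and the macrophage list without control 2 or without the markers that passed through affected dogs alone, were added after seeing the data.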

Additional observations from a re-analysis of the deposited data

Results flagged for a closer look

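Over 23 probe sets of the 4 genes and the other complement genes, 9 of 46 groups of 4 dogs held a dog whose gap to its nearest neighbour, as a share of the group's range in log2 signal, passed Dixon's 95% critical value, which chance gives in about 1 in 20 groups. The probe sets share dogs and so are not independent. Control 2 was the dog in 6 of the 9. It was low for C1R at 9.51 (12.60 to 12.70 in the other controls), C1S at 10.62 (13.29 to 13.36), SERPING1 at 11.31 (13.53 to 13.72) and CLU at 12.98 (14.28 to 14.52). It was high for C5 at 6.91 (6.60 to 6.62) and C6 at 12.78 (9.74 to 10.24). Affected 4 was high for the C2 probe set 1586181_at at 9.03 (5.10 to 5.64 in the other affected dogs). Affected 1 was high for CLU at 15.43 (14.50 to 14.52), and affected 2 was low for SERPING1 at 13.16 (13.55 to 13.61). C1QA and C1QC were not among the 9. For C1QA the signal of control 2, 12.12 on the linear scale, was raised to the floor, which narrows its gap. Control 2 still stood at -5.51 in log2 signal relative to the mean of the other controls. The absence of C1QA from the 9 therefore does not show that control 2 lay near the other controls.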

How the results depend on the processing

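No tested probe set of the 4 genes passed an adjusted p of 0.05 in limma under any alternative, the adjusted p ranging from 0.3 to 0.986. Their direction held in all alternatives except for CD59 1594000_at, which was -0.28 with all dogs, from -0.60 to 0.15 with a dog left out, and turned to 0.15 without affected 2. Leaving out each dog gave 0.93 to 3.03 for C1QA, 1.17 to 2.65 for C1QC, 0.62 to 1.64 for C2 1586351_at, 0.15 to 0.84 for 1591538_at, 0.50 to 1.57 for 1587934_s_at, and 0.48 to 0.88, 0.45 to 0.86 and 0.43 to 0.68 for CD59 1586062_s_at, 1604567_s_at and 1593346_s_at. Array weights lowered C1QA to 1.13, C1QC to 1.12 and C2 1591538_at to 0.33. C1QA was 2.69 with no floor. The complement median ranged from 0.30 to 0.86 with a dog left out. With array weights C1R, C1S, C3 and C8G differed by 0.23, 0.10, 0.70 and 0.45, and with quantile normalization C5 by 0.095 and CLU by 0.39. C1S turned to -0.083 without control 2 (from there to 0.83 with a dog left out), SERPING1 to -0.18 without control 2 (to 0.62) and -0.043 with array weights, and VTN to 0.050 with array weights, 0.13 without affected 3 and 0.012 without control 3 (-0.15 to 0.13). The stricter filter dropped C2 1587934_s_at, C5, C8G and VTN.

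Over all probe sets, 4 passed with a replicate block, 0 to 1 with a dog left out and 20 at an adjusted p under 0.25. Counts at an unadjusted p under 0.05 were 896 higher and 1071 lower with array weights, and 380 to 1006 higher and 314 to 834 lower with a dog left out (lowest without affected 1, highest without affected 3). Non-overlapping counts were 446 to 1059 higher and 440 to 846 lower with fewer dogs to separate. The replicate block changed no call of the 4 genes, with adjusted p from 0.406 to 0.855. Apart from the turns given, where the cause was not tested, signal near the floor limits the dim C2 probe sets and control 2 in C1QA.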
